A study of Mus musculus with 78 samples.

Results

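Mouse CD8+ T cells kept for 3 h without glucose were compared, in total RNA, with cells kept in complete medium. The comparison used 6 of the 78 libraries in the labels, the 3 No Glucose and the 3 Control libraries of total RNA, which were taken by their labels and not by any measured value. Of 14695 genes in the count table, 12642 had enough reads to be tested. Every group held primary T cells of C57BL/6J mice, taken from lymph nodes and spleen, on day 3 of activation, and the labels give neither an age nor a genetic change. The No Glucose cells had spent 3 h in medium lacking glucose. The No Arginine, No BCAA (branched-chain amino acids), No Glutamine and No Methionine cells had spent the same time without those amino acids, and the Control cells in complete medium. Each group held 3 numbered libraries. Nothing in the labels tells separate animals or cultures from repeat samples of 1 culture, so each p-value rests on a spread between libraries that may be technical. Polysome RNA, pooled from the heavy fractions of a sucrose gradient run on the same lysates after cycloheximide had been added to hold ribosomes on mRNA, gave a further comparison of the same 2 conditions.

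Activated CD8+ T cells take up glucose at a high rate and use glycolysis for growth, division and the making of cytokines. Glucose also supplies the sugars that are attached to proteins, among them the N-acetylglucosamine that the enzyme OGT adds to nuclear and cytosolic proteins and OGA removes, and it feeds the acetyl-CoA from which fatty acids and cholesterol are built. Cells sense its loss through several routes: the transcription factor MondoA, which is active when hexose phosphates are plentiful, the kinases AMPK and mTORC1, and the integrated stress response (ISR), in which phosphorylation of eIF2α slows general translation while the transcription factor ATF4 is made.

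Total counts per library ran from 19740104 to 28876971 in No Glucose and from 25705095 to 30637485 in Control libraries. Entries derived from ribosomal and 7SK RNA took 2.33 to 3.54% of counts in No Glucose libraries and 1.95 to 2.74% in Control libraries. CPM stands for counts per 1000000 counts of a library, after scaling. Of 12 markers listed for CD8+ T cells 11 were in the table. Their summed level was 3675 to 3980 CPM in No Glucose and 3894 to 4345 CPM in Control libraries. Most of the 12 are genes of all T cells, and the highest, the leukocyte gene Ptprc, had a mean of 1241 CPM over the total RNA libraries. The sum therefore does not tell CD8+ from other T cells. The other marker sums were 19.3 to 21.7 and 10.5 to 12.4 CPM for CD4+ T cells (2 of 4 markers in the table), 26.0 to 29.6 and 25.7 to 27.8 CPM for B cells (4 of 8), 11.1 to 12.1 and 10.9 to 12.5 CPM for myeloid cells (1 of 12), 11.3 to 11.7 and 9.63 to 10.8 CPM for stromal cells (1 of 6), and under 2 CPM in every library for NK (1 of 4) and erythroid and platelet markers (2 of 7), with the range of the No Glucose libraries before that of Control in each pair. The markers that are not in the table, Cd4 among them, were not analysed here. Nearly all of the CD4+ sum came from Zbtb7b, which encodes the transcription factor ThPOK, at 21.7, 21.5 and 19.2 CPM in No Glucose against 10.6, 12.3 and 10.5 CPM in Control libraries (0.90 ± 0.10, edgeR adjusted p = 5.1e-07). No Glucose replicate 1 stood further from No Glucose replicates 2 and 3 (chi-square of counts per degree of freedom 10.8 and 9.81) than these did from each other (4.46), and Control replicate 1 likewise from Control replicates 2 and 3 (19.6 and 17.6, against 3.49 between these). Without No Glucose replicate 1 the main comparison called 4300 genes and without Control replicate 1 it called 4797, against 5159 with all 6 libraries. The part of other cells in the results was not tested. In bulk RNA, fewer cells of a type and less RNA per cell cannot be told apart.

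The comparison with Control asked how the RNA of activated CD8+ T cells changes when glucose is missing. Without glucose, 2751 of 12642 genes were called higher (21.8%) and 2408 were called lower (19.0%) than in Control, or 40.8% in either direction, by the quasi-likelihood test of edgeR with Benjamini-Hochberg adjustment over all genes. An adjusted p under 0.05 was the threshold for "called", "rose" and "fell" throughout. Most changes were modest: 217 genes were over 2-fold higher and 292 over 2-fold lower, the median log2 fold change was 0.46 among genes called higher and -0.45 among those called lower, and it was 0.02 over all genes tested. Values below are levels in CPM (scaled by edgeR's TMM factors) or log2 fold changes of No Glucose over Control with ± 1 standard error. All changes are relative to the other genes of a library, and levels are not compared between genes, since gene lengths were not used. A list count near the 21.8% higher or 19.0% lower of all genes is no result about that list. The 15 highest changes, among genes with at least 5 CPM in 1 of both groups and no overlap between the groups, were led by genes of the ISR, with the O-GlcNAc transferase gene Ogt and the heme oxygenase gene Hmox1 among them. The 15 lowest held Dgcr8 and the microRNA host genes Mir17hg and Mir22hg, the S-adenosylmethionine genes Mat2a and Amd1, the cyclin gene Ccne2 and the farnesyl diphosphate synthase gene Fdps.

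**Figure D1:**
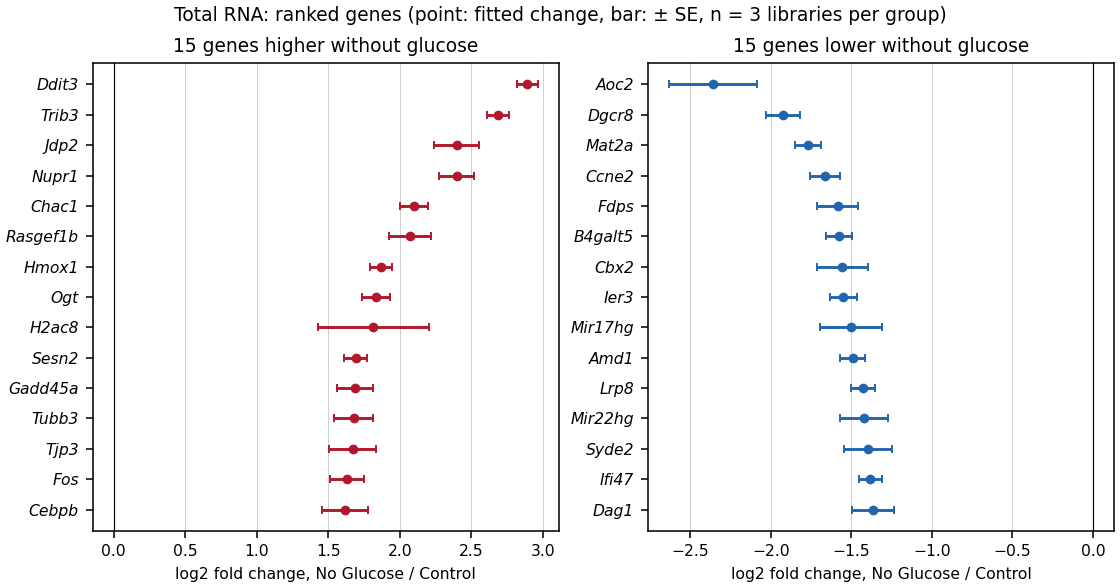
Log2 fold changes in total RNA (x axis, No Glucose over Control) of the 15 genes with the highest and the 15 with the lowest values among called genes with at least 5 CPM in 1 of both groups and no overlap between the groups. Points are fitted changes and bars are ± 1 standard error (3 libraries per group); Ddit3 lies at 2.89 and Aoc2, a low-level amine oxidase gene with the widest bar on its side, at -2.36 ± 0.27.

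By median the regulators of the ISR were the most raised of the pathway lists. Of 24 tested, 19 rose and 3 fell, with a median log2 fold change of 0.76 where all genes had 0.02. Ddit3, which encodes the transcription factor CHOP, had 131, 134 and 133 CPM in No Glucose libraries, against 18.0, 18.3 and 17.4 CPM in Control libraries. Trib3, a pseudokinase that restrains AKT and ATF4, had 217, 209 and 211 CPM in No Glucose, against 34.5, 30.4 and 34.1 CPM in Control. The No Glucose libraries of both genes lay several times above every Control library, with changes of 2.89 ± 0.07 (adjusted p = 6.5e-17) and 2.69 ± 0.08 (adjusted p = 3.3e-16). Chac1, which encodes an enzyme that degrades glutathione, stood at 83.0, 76.3 and 81.2 CPM in No Glucose and 17.7, 20.7 and 17.8 CPM in Control libraries (2.10 ± 0.10). Nupr1, a small nuclear stress protein, had 16.3, 19.0 and 17.2 CPM in No Glucose against 3.39, 2.76 and 3.79 CPM in Control (2.40 ± 0.12). Jdp2, which encodes a repressor of AP-1, had 8.43, 7.79 and 8.70 CPM in No Glucose against 1.56, 1.43 and 1.72 CPM in Control (2.40 ± 0.16). Both groups of libraries were tight and far apart for these genes.

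A motif known as the C/EBP-ATF response element, TGATGNAA on either strand, is bound by ATF4 with a C/EBP or CHOP partner. It was searched in RefSeq promoter windows of build GRCm38.p6, from 250 bases before to 50 bases after each annotated start. Of the 19 ISR regulators that rose, 18 had a window and 7 of these held a match in at least 1 window (38.9%), namely Trib3, Chac1, Nupr1, Atf3, Jdp2, Vldlr and Herpud1. Among the 8843 tested genes with a window the share was 2.67%, and among all 27025 genes with one it was 4.51%. The list was largely made of genes known as ATF4 or CHOP targets, so this share describes the list and is no test of the motif. Ddit3 and Sesn2 had no such letters in their windows. The 250 bases before the start are shown for 3 of the most raised genes and for Asns, the asparagine synthetase gene, with the matched letters in capitals, which begin 193, 110, 33 and 23 bases before the start in this order.
Chac1 (chr2:119350992-119351241, plus strand): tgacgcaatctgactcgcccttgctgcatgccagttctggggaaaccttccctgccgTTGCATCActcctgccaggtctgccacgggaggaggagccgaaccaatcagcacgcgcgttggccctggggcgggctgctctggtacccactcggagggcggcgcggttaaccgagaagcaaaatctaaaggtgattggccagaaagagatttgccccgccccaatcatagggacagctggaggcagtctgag
Nupr1 (chr7:126625471-126625720, minus strand): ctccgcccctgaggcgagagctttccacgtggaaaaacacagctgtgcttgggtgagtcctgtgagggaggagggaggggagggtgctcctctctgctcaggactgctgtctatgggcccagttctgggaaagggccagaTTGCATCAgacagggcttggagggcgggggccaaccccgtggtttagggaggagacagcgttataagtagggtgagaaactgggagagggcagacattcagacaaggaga
Jdp2 (chr12:85599166-85599415, plus strand): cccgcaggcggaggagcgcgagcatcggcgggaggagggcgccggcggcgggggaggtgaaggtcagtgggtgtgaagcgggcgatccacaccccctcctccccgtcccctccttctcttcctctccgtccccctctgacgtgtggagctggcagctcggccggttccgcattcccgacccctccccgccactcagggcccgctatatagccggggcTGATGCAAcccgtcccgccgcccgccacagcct
Asns (chr6:7693210-7693459, minus strand): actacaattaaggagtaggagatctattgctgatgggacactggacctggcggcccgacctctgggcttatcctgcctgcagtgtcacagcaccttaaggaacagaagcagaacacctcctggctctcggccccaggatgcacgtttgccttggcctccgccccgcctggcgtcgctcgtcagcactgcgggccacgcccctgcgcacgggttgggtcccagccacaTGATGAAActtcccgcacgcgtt

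The other ISR regulators include transcription factors, feedback genes and kinases. Atf4 itself rose, with 988, 962 and 982 CPM in No Glucose libraries against 630.2, 645 and 664 CPM in Control libraries (0.60 ± 0.06). Its relatives Atf3 (0.89 ± 0.05) and Atf5 (0.78 ± 0.11) and its partner Cebpb (1.62 ± 0.16) also rose. Ppp1r15a, which encodes the GADD34 subunit that brings a phosphatase to eIF2α, had 85.8, 85.1 and 83.7 CPM in No Glucose against 30.7, 34.2 and 32.4 CPM in Control (1.39 ± 0.06), while the constitutive form Ppp1r15b was at 0.11 ± 0.07 and was not called. Sesn2, whose product senses leucine and restrains mTORC1, had 179, 178 and 183 CPM in No Glucose and 56.7, 56.3 and 54.2 CPM in Control libraries (1.69 ± 0.08). Ddit4, another inhibitor of mTORC1, rose by 0.77 ± 0.10. Of the kinases that phosphorylate eIF2α, Eif2ak2 (PKR) fell by 0.80 and Eif2ak4 (GCN2) by 0.40.

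Genes for amino acid supply moved with these regulators. Of 14 amino acid transporter genes 8 rose and 3 fell (median 0.39). Slc3a2, the heavy chain shared by several transporters, had 726, 764 and 794 CPM in No Glucose libraries, against 268, 313 and 298 CPM in Control libraries (1.38 ± 0.09, adjusted p = 1.4e-10). Its partner Slc7a5, which imports large neutral amino acids, rose by 0.40 ± 0.08, and the arginine carrier gene Slc7a1 rose by 0.87 ± 0.13. The glutamine carrier gene Slc1a5 went the other way, with 157, 168 and 187 CPM in No Glucose against 197, 229.5 and 209 CPM in Control (-0.31 ± 0.10, adjusted p = 0.016), and was not called without No Glucose replicate 1, No Glucose replicate 2 or Control replicate 2. Without No Glucose replicate 1, 1 transporter gene was called lower. Of 15 enzymes of serine, folate, asparagine and proline synthesis 12 rose and 1 fell. Among those that rose were the mitochondrial enzyme genes Pck2 (0.95 ± 0.07), Mthfd2 (0.56 ± 0.05) and Shmt2 (0.44 ± 0.07), and the 1 that fell was Shmt1, the cytosolic serine hydroxymethyltransferase gene (-0.56 ± 0.06). Asns had 319, 307 and 297 CPM in No Glucose against 215, 198 and 211 CPM in Control (0.57 ± 0.06). Of 19 cytosolic aminoacyl-tRNA synthetase genes, which charge tRNAs with amino acids, 15 rose, led by Aars1 (0.83 ± 0.08) and Vars1 (0.82 ± 0.08). The other 4, Wars1 (-0.07 ± 0.05) among them, were not called.

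Of 26 chaperone and sensor genes of the unfolded protein response of the endoplasmic reticulum 7 rose and 2 fell. Beside the 21.8% of all genes called higher this is no result about the list, whose median was 0.03 where all genes had 0.02. Hspa5, the main chaperone of the reticulum (BiP), had 1935, 2004 and 2104 CPM in No Glucose and 1338, 1497 and 1571 CPM in Control libraries (0.46 ± 0.08, adjusted p = 0.0001). Its co-chaperone gene Dnajb9 had 19.8, 22.5 and 23.4 CPM in No Glucose against 12.2, 13.5 and 13.3 CPM in Control (0.75 ± 0.11), and Xbp1, the transcription factor of the response, rose by 0.55 ± 0.07. The groups did not overlap for these genes. Other chaperone genes lay near 0, among them Hsp90b1 (0.03 ± 0.08), Pdia3 (-0.08 ± 0.07) and Calr (0.13 ± 0.09). The lower count was 1 without No Glucose replicate 2, Control replicate 2 or Control replicate 3.

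Of 7 listed sugar-sensing genes 3 fell and 2 rose. Txnip, an arrestin-domain gene driven by MondoA whose product limits glucose uptake, had 25.5, 28.6 and 23.3 CPM in No Glucose libraries, against 72.1, 58.3 and 58.2 CPM in Control libraries. All 3 No Glucose libraries were below all Control libraries, and the change was -1.29 ± 0.10 (adjusted p = 2.3e-09). Its relative Arrdc4, also a MondoA target, was near the detection limit at 0.613, 0.290 and 0.355 CPM in No Glucose against 0.648, 1.22 and 1.36 CPM in Control (-1.39 ± 0.32, adjusted p = 0.0017). Klf10, a zinc-finger repressor listed among MondoA targets, had 4.96, 4.06 and 4.58 CPM in No Glucose against 9.27, 9.88 and 9.14 CPM in Control (-1.06 ± 0.11). The mRNAs of MondoA itself, Mlxip (-0.14 ± 0.16), and of its partner Mlx (0.15 ± 0.07) were not called, and the listed genes Hbp1 (0.58 ± 0.10) and Rgs16 (0.98 ± 0.06) rose. Of 6 listed sugar-sensing genes with a promoter window, Txnip alone held the carbohydrate response element, a spaced pair of E-box-like sequences, which 0.113% of tested genes with a window and 0.0555% of all genes with one held. Its window is shown because MondoA is known to act through such elements, and the match begins 85 bases before the start.
Txnip (chr3:96557707-96557956, plus strand): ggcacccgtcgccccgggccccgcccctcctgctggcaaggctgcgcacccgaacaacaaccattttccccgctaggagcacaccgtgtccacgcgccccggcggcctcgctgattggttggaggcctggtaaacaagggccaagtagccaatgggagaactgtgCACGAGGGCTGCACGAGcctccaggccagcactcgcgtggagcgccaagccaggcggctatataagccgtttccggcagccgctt

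The largest change among sugar genes was in the O-GlcNAc pair. Ogt, which encodes the transferase, had 334, 313 and 278 CPM in No Glucose libraries, against 95.8, 80.5 and 83.4 CPM in Control libraries. This was a 3.56-fold higher level (1.83 ± 0.10, adjusted p = 1.2e-11) with no overlap. Oga, which encodes the opposing hydrolase, had 179, 158 and 158 CPM in No Glucose and 267, 236 and 248 CPM in Control libraries (-0.60 ± 0.09, adjusted p = 1.2e-05), again with no overlap. Of 21 genes that make nucleotide sugars or use them in this way, 5 rose and 3 fell, and Gfpt1, the entry enzyme of the hexosamine pathway, was at 0.02 ± 0.12 and was not called. The higher count was 3 without No Glucose replicate 2. Both counts of the list are near the 21.8% higher and 19.0% lower of all genes and no result about it.

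Genes of protein glycosylation were called in both directions, where 21.8% of all genes rose and 19.0% fell. Of 27 genes that assemble, transfer or trim the N-glycan precursor, 2 rose and 8 fell. The lower count was 5 without Control replicate 2 and 4 without Control replicate 3. These are near the share of all genes, so the lower count is no firm result about the list. Without Control replicate 1, 1 rose. Mogs, the glucosidase that trims the first glucose, had 88.2, 91.6 and 99.5 CPM in No Glucose against 136, 160.1 and 152 CPM in Control (-0.68 ± 0.09), the dolichol kinase gene Dolk was at -0.71 ± 0.11, and the mannosyltransferase gene Alg2 rose (0.71 ± 0.07). Outside that list, Mgat1, which starts complex N-glycans in the Golgi, had 33.6, 31.0 and 31.8 CPM in No Glucose libraries, against 65.9, 68.0 and 67.5 CPM in Control libraries (-1.06 ± 0.07, adjusted p = 1.5e-10). B4galt5, a galactosyltransferase that makes lactosylceramide, had 21.7, 20.7 and 20.3 CPM in No Glucose against 61.9, 63.0 and 61.7 CPM in Control (-1.58 ± 0.08). Mgat1 was chosen after its values were seen.

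**Figure D2:**
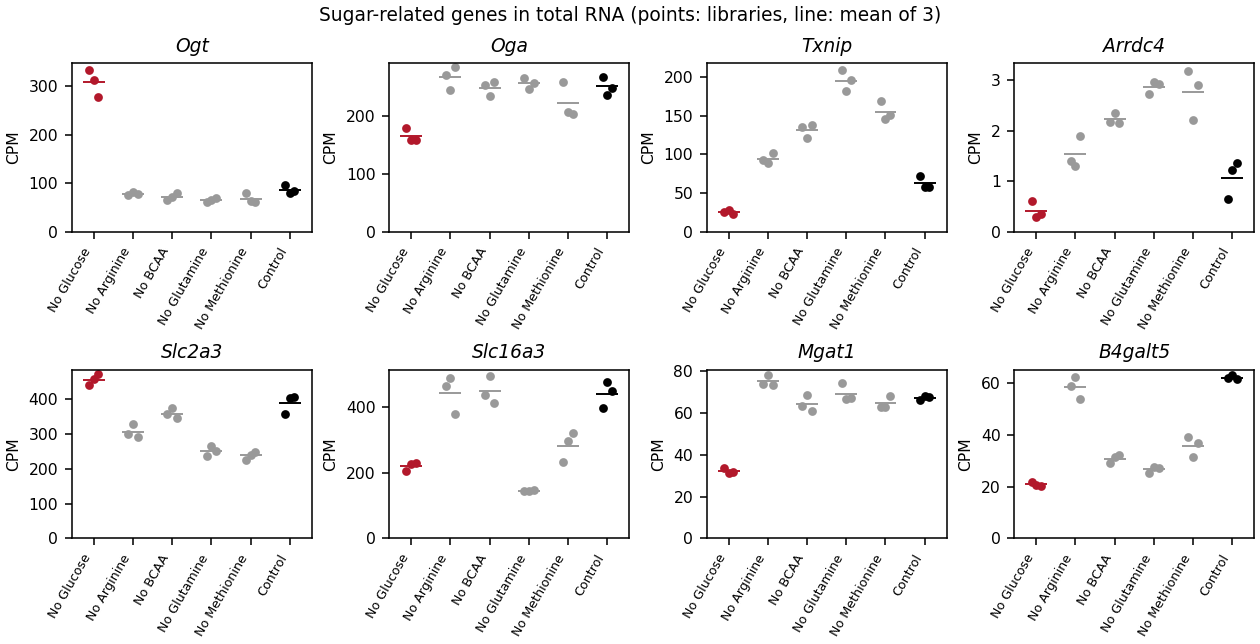
CPM in total RNA (y axis, starting at 0) of 8 sugar-related genes by condition (x axis), with No Glucose in red, the 4 other deprivations in grey and Control in black; points are libraries and lines are means of 3. The 3 No Glucose libraries lay above all 15 others for Ogt (334, 313 and 278 CPM) and below all 15 others for Txnip, Arrdc4, Oga, Mgat1 and B4galt5.

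Glycolysis genes moved in both directions by small amounts, beside 21.8% of all genes called higher and 19.0% called lower. Of 26 tested, 6 rose and 8 fell, with a median of 0.08. Without Control replicate 2 or Control replicate 3, 3 rose, and without Control replicate 1, 5 fell. The higher count is near the share of all genes, as is the lower count without Control replicate 1. Neither is a firm result about the list. The lowest was Slc16a3, the lactate exporter MCT4, with 206, 225 and 229 CPM in No Glucose libraries against 396, 475 and 448 CPM in Control libraries (0.501 times the Control level, adjusted p = 2.6e-07). The other monocarboxylate carrier gene Slc16a1 fell by 0.54 and the glucose transporter gene Slc2a1 by 0.36, with 308, 335 and 344 CPM in No Glucose against 385, 454 and 423 CPM in Control. Aldoa, an aldolase gene, rose, with 3958, 4136 and 4185 CPM in No Glucose against 3159, 3083 and 3085 CPM in Control (0.40 ± 0.07). The hexokinase gene Hk2 (-0.02 ± 0.16), the pyruvate kinase gene Pkm (0.15 ± 0.07) and the regulator Pfkfb3 (0.14 ± 0.09) were not called, although Pkm was called higher without Control replicate 1 and with only the 6 libraries. Of 15 hypoxia-inducible genes 3 were higher and 5 lower. Without No Glucose replicate 1 or 2, or Control replicate 2 or 3, 3 were lower. The higher count and the lower count of 3 are near the shares of all genes, so this is no firm result about the list. The mitochondrial adenylate kinase gene Ak4 had 36.6, 38.4 and 35.5 CPM in No Glucose against 94.2, 86.6 and 90.5 CPM in Control (-1.30 ± 0.07), Egln3, an oxygen-sensing prolyl hydroxylase gene, was at -0.78 ± 0.06, and Ndrg1 rose by 0.93 ± 0.06.

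Genes of mitochondrial fuel use were called in both directions, but less often than all genes, of which 21.8% rose and 19.0% fell. The counts that follow are no result about the lists. Of 31 genes of pyruvate use, the tricarboxylic acid cycle and glutamine entry, 4 rose and 4 fell, and 2 rose without No Glucose replicate 1 or No Glucose replicate 3, and 7 rose when only the 6 libraries were fitted. Among those that fell were Pdp2, a phosphatase that activates pyruvate dehydrogenase (-0.91 ± 0.08), and Idh1, the cytosolic isocitrate dehydrogenase gene (-0.67 ± 0.10). Of 18 fatty acid oxidation genes 3 rose and the other 15 were not called. The 3 were Cpt1a, which carries out the committed step of entry into mitochondria (41.2, 38.6 and 44.6 CPM in No Glucose against 29.7, 31.8 and 29.4 CPM in Control, 0.45 ± 0.07), Hadha (0.31 ± 0.07) and Hadh (0.29 ± 0.08), and Hadh was not called without No Glucose replicate 3.

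Lipid synthesis genes fell more often than they rose. Of 24 genes of cholesterol synthesis and uptake 16 fell and the other 8 were not called, with a median of -0.53. Fdps had 4.24, 3.10 and 4.15 CPM in No Glucose libraries, against 12.6, 11.2 and 10.8 CPM in Control libraries (-1.58 ± 0.13, adjusted p = 5.2e-09). Hmgcs1, the enzyme that makes HMG-CoA, had 344, 331 and 323 CPM in No Glucose against 699, 588 and 602 CPM in Control (-0.92 ± 0.08), and Acat2, which condenses acetyl-CoA in the first step, had 95.4, 87.1 and 91.9 CPM in No Glucose against 186, 186 and 185 CPM in Control (-1.02 ± 0.06). For all 3 genes the groups were separate. The feedback gene Insig1 fell by 0.76, and Lrp8, a lipoprotein receptor gene outside the list, by 1.43. Srebf2, which encodes the transcription factor SREBP2 that drives the pathway, was not called (0.08 ± 0.10). Of 14 fatty acid synthesis genes 8 fell, among them the desaturase gene Scd2, with 765, 836 and 834 CPM in No Glucose against 1381, 1452 and 1459 CPM in Control (-0.82 ± 0.07), the elongase gene Elovl6 (-0.87 ± 0.06), Acaca (-0.50 ± 0.11) and Fasn (-0.47 ± 0.12). The 2 called higher, Acss2 (0.28 ± 0.09) and Elovl5 (0.20 ± 0.08), lost their calls when single libraries were left out: 0 were higher without No Glucose replicate 1 or Control replicate 3, and 1 without any of the other 4 libraries. A sterol regulatory element, TCACNCCAC on either strand, was present in the window of 1 of the 10 cholesterol genes that fell and had a window, Hmgcs1, against 1.31% of tested genes and 1.44% of all genes with a window. It begins 137 bases before the start and is shown because SREBP2 is known to act through such elements.
Hmgcs1 (chr13:119690101-119690350, plus strand): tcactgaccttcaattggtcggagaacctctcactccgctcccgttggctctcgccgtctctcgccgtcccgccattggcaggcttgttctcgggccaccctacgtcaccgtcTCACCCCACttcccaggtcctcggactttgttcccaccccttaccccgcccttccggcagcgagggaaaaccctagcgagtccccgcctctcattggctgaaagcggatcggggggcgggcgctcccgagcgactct

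S-adenosylmethionine and microRNA processing were marked by single genes that fell steeply. Mat2a, whose product makes S-adenosylmethionine from methionine and ATP, had 98.3, 95.3 and 93.1 CPM in No Glucose libraries, against 359, 298 and 319 CPM in Control libraries. Amd1, which turns S-adenosylmethionine to polyamine synthesis, had 70.6, 72.7 and 66.0 CPM in No Glucose against 199, 186 and 203 CPM in Control. The groups were far apart for both genes, with changes of -1.77 ± 0.08 and -1.49 ± 0.08. The polyamine synthesis genes Srm (-0.32 ± 0.07) and Odc1 (-0.26 ± 0.05) and the salvage gene Mtap (-0.47 ± 0.07) fell too. Of 13 genes of the methionine cycle and polyamine synthesis these 5 fell. The 1 that was called higher, Ahcy (0.14 ± 0.05), was not called once any 1 of the 6 libraries was left out. Dgcr8, the RNA-binding subunit that guides Drosha to primary microRNAs, had 10.5, 10.9 and 11.4 CPM in No Glucose against 44.5, 39.5 and 41.0 CPM in Control (-1.93 ± 0.11, adjusted p = 1.7e-11), and Dicer1, which cuts the precursors, had 49.9, 46.6 and 46.9 CPM in No Glucose against 97.8, 85.5 and 82.1 CPM in Control (-0.89 ± 0.13). Drosha was at -0.08 ± 0.12 and was not called. In all, 4 of 8 microRNA processing genes fell and the other 4 were not called, and 2 fell without No Glucose replicate 3 or Control replicate 1. The host gene of the miR-17 cluster, Mir17hg, had 3.53, 2.95 and 5.04 CPM in No Glucose against 10.6, 11.1 and 11.5 CPM in Control (-1.50 ± 0.19), and Mir22hg had 4.24, 4.84 and 6.21 CPM in No Glucose against 14.6, 13.6 and 13.3 CPM in Control (-1.42 ± 0.15).

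Effector cytokine and killing genes fell or were not called. Of 13 tested, 8 fell and the other 5 were not called, with a median of -0.47. Ifng, the interferon-γ gene, had 824, 882 and 899 CPM in No Glucose libraries, against 1294, 1472 and 1468 CPM in Control libraries (-0.70 ± 0.08, adjusted p = 1.2e-06). Lta, the lymphotoxin-α gene, had 98.2, 103 and 107 CPM in No Glucose against 181, 216 and 211 CPM in Control (-0.98 ± 0.09), and Tnf had 55.2, 58.6 and 66.7 CPM in No Glucose against 79.5, 87.7 and 82.2 CPM in Control (-0.47 ± 0.09). All No Glucose libraries lay below all Control libraries for the 3 cytokines. Of the granule genes, perforin (Prf1) had 130.4, 140.3 and 149 CPM in No Glucose against 236, 267 and 261 CPM in Control (-0.86 ± 0.09) and granzyme B (Gzmb) had 5303, 5664 and 5889.6 CPM in No Glucose against 7195, 8274 and 8519.7 CPM in Control (-0.51 ± 0.09). Granzyme A (Gzma, 0.09 ± 0.13), granzyme C (Gzmc, 0.02 ± 0.11) and Nkg7 (-0.19 ± 0.09) were not called, but Nkg7 was called lower with the replicate block, without Control replicate 1 and with only the 6 libraries (-0.19 to -0.25). The death ligand gene Tnfsf10 (TRAIL) fell by 0.66. Outside the list, Lif, a cytokine of the interleukin-6 family, had 59.6, 63.8 and 66.5 CPM in No Glucose against 155, 163 and 146 CPM in Control (-1.28 ± 0.09), and Il10 had 52.2, 61.4 and 59.8 CPM in No Glucose against 84.7, 97.6 and 98.7 CPM in Control (-0.70 ± 0.10); both were chosen after their values were seen. Of 5 chemokine genes 2 rose and 2 fell, or 1 without No Glucose replicate 1, Control replicate 2 or Control replicate 3. Xcl1, which attracts cross-presenting dendritic cells, had 31.2, 32.1 and 32.6 CPM in No Glucose against 14.7, 18.3 and 18.7 CPM in Control (0.89 ± 0.11) and Cxcl10 had 5.01, 6.19 and 6.36 CPM in No Glucose against 1.98, 2.51 and 2.46 CPM in Control (1.34 ± 0.19), whereas Ccl4, which attracts other lymphocytes and monocytes, had 257, 261 and 274 CPM in No Glucose against 359.5, 406 and 397 CPM in Control (-0.55 ± 0.08).

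**Figure D3:**
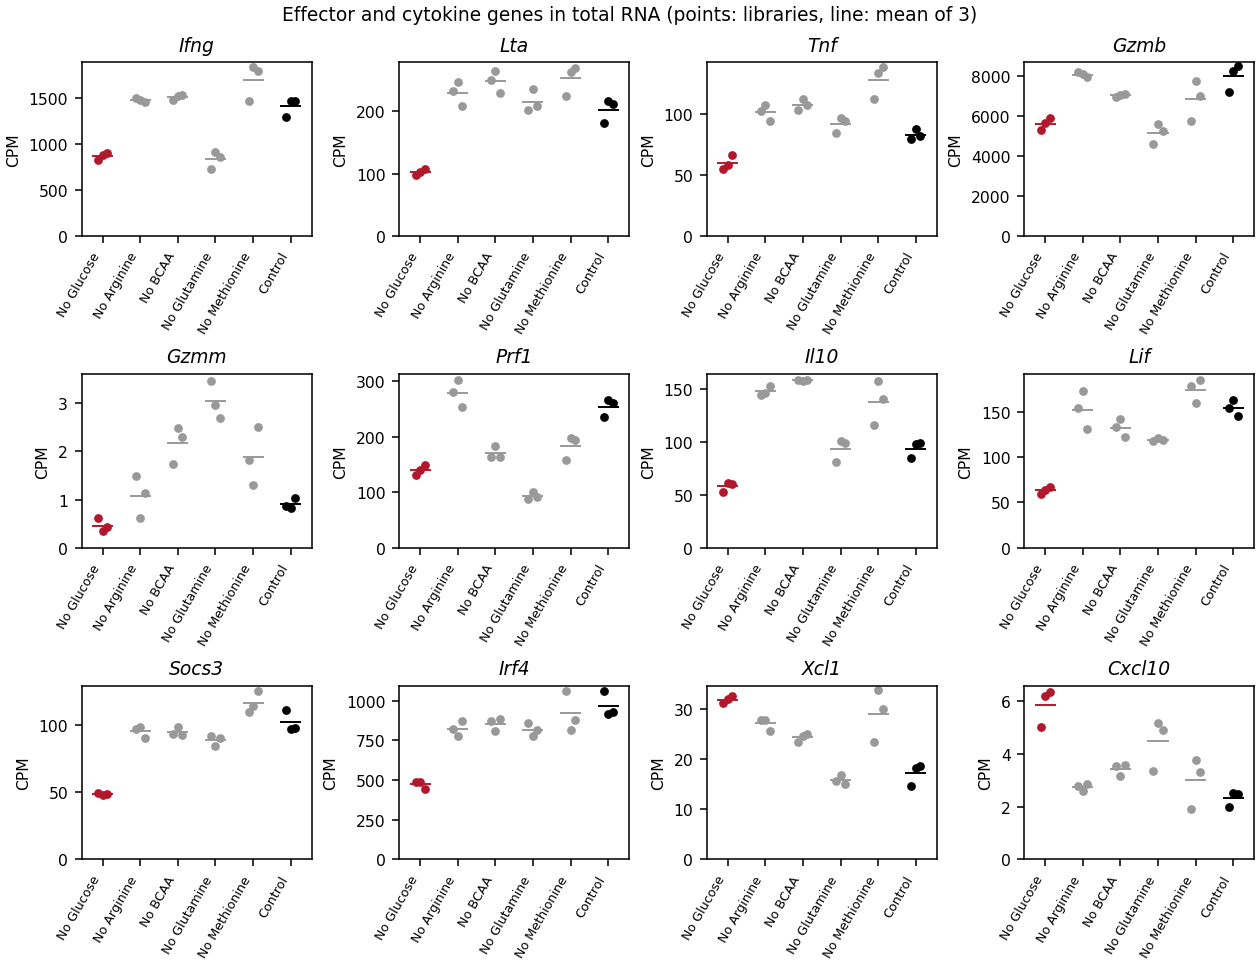
CPM in total RNA (y axis, starting at 0) of 12 effector, cytokine, chemokine and regulator genes by condition (x axis), with No Glucose in red, the 4 other deprivations in grey and Control in black; points are libraries and lines are means of 3. No Glucose libraries were the lowest of all 18 for Lta, Tnf, Il10, Lif, Socs3 and Irf4, while for Ifng, Gzmb and Prf1 they overlapped the No Glutamine libraries or lay above them.

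Cytokine signalling and transcription factor genes were also called in both directions, where 21.8% of all genes rose and 19.0% fell. Of 11 genes of the interleukin-2 receptor and its feedback, 6 fell and 2 rose, or 1 without No Glucose replicate 1 or 2, or Control replicate 2 or 3. The receptor chains Il2ra, with 1247, 1433 and 1385 CPM in No Glucose against 1853, 2143 and 2131 CPM in Control (-0.59 ± 0.09), and Il2rb (-0.43 ± 0.07) fell, as did the feedback inhibitor gene Socs3, with 49.3, 47.9 and 48.6 CPM in No Glucose against 111, 97.1 and 97.6 CPM in Control (-1.07 ± 0.07). Of 21 transcription factor genes of CD8+ T cell differentiation, 7 rose and 5 fell. Without No Glucose replicate 2 or 3 or Control replicate 2, 3 fell. The lower count is near the share of all genes and no result about the list. Irf4, which scales the response to the strength of T cell receptor signals, had 487, 486 and 446 CPM in No Glucose and 1060.1, 916 and 926 CPM in Control libraries (-1.03 ± 0.09, adjusted p = 8.9e-09). Myb was also lower (-0.75 ± 0.08). The effector factor gene Tbx21 (T-bet) had 173, 162 and 154 CPM in No Glucose against 118, 116 and 107 CPM in Control (0.52 ± 0.07), and Bcl6 (0.78 ± 0.17) and Id3 (0.64 ± 0.11), tied to memory cells, and Runx3 (0.58 ± 0.15) rose too. Of 11 activating and inhibitory receptor genes 3 rose and 3 fell. Without No Glucose replicate 2, No Glucose replicate 3 or Control replicate 2, 1 rose. Among so few genes these counts are near the shares of all genes and no result about the list. The costimulator gene Icos had 114, 123 and 119 CPM in No Glucose against 164, 179.9 and 179 CPM in Control (-0.56 ± 0.06), the inhibitory receptor gene Ctla4 had 758, 761 and 825 CPM in No Glucose against 1033, 1172 and 1206 CPM in Control (-0.54 ± 0.08), and the early activation gene Cd69 rose (0.46 ± 0.08).

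Immediate early genes, which answer receptor and stress signals within minutes, rose more often than they fell. Of 21 tested, 11 rose and 3 fell, with a median of 0.30. Fos, an AP-1 subunit gene, had 10.7, 11.7 and 10.6 CPM in No Glucose and 3.43, 3.62 and 3.60 CPM in Control libraries (1.63 ± 0.12), the orphan nuclear receptor gene Nr4a1 had 165, 163 and 169 CPM in No Glucose against 62.7, 70.4 and 61.6 CPM in Control (1.35 ± 0.08), and Egr2 had 32.8, 33.3 and 32.2 CPM in No Glucose against 14.6, 13.1 and 13.1 CPM in Control (1.27 ± 0.08). The phosphatase genes Dusp4 (1.19 ± 0.09) and Dusp6 (-0.58 ± 0.09), both of which act on the ERK kinase, moved apart. Ier3 was the lowest member, with 28.2, 26.1 and 28.6 CPM in No Glucose against 79.2, 83.7 and 79.9 CPM in Control (-1.55 ± 0.09).

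Genes of entry into the cell cycle fell more often than they rose. Of 31 genes of G1 and S phase, 14 fell and 3 rose, with a median of -0.18. The higher count was 1 without No Glucose replicate 1, Control replicate 2 or Control replicate 3, and 8 without Control replicate 1. Ccne2, a cyclin that starts S phase with CDK2, had 21.5, 23.2 and 23.5 CPM in No Glucose libraries, against 68.7, 72.7 and 74.9 CPM in Control libraries (-1.66 ± 0.10, adjusted p = 3.7e-11), its relative Ccne1 had 28.6, 28.8 and 25.1 CPM in No Glucose against 54.6, 53.2 and 55.0 CPM in Control (-0.98 ± 0.07), and the phosphatase gene Cdc25a fell by 0.74. Genes of the replicative helicase were not called, except Mcm5 (0.22 ± 0.07), which was not called without No Glucose replicate 1, Control replicate 2 or Control replicate 3. Of 25 genes of G2 and mitosis 8 rose and 7 fell, the checkpoint kinase gene Bub1 at 0.85 ± 0.09 and the proliferation marker Mki67 at 0.76 ± 0.17 among the genes that rose, and the cyclin F gene Ccnf (-0.91 ± 0.07) and the mitotic kinase gene Cdk1 (-0.59 ± 0.08) among those that fell. Of 34 ribosome biogenesis genes 3 rose and 12 fell. Lower were, for example, Dkc1 (-0.82 ± 0.07), Nop56 (-0.81 ± 0.06) and the RNA polymerase I factor gene Ubtf (-0.71 ± 0.08). The higher count was 1 without No Glucose replicate 2, Control replicate 2 or Control replicate 3 and 5 without Control replicate 1. Myc, which drives these programmes in activated T cells, had 212, 226 and 209 CPM in No Glucose against 252, 251 and 241 CPM in Control and was not called (-0.20 ± 0.10, adjusted p = 0.095), though it was called lower when only the 6 libraries were fitted (-0.21, adjusted p = 0.0043).

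Nutrient sensing genes were called in both directions, where 21.8% of all genes rose and 19.0% fell. Of 23 genes of the mTORC1 and AMPK kinases and their regulators 9 rose and 4 fell, the latter near the share of all genes. Mlst8, a subunit of mTOR complexes, had 43.9, 41.2 and 39.8 CPM in No Glucose and 23.2, 20.3 and 19.7 CPM in Control libraries (0.98 ± 0.10), and Prkab1, a β subunit of AMPK, had 45.8, 46.8 and 47.8 CPM in No Glucose against 29.2, 30.0 and 26.6 CPM in Control (0.71 ± 0.07). Fnip2, a partner of folliculin in signalling to mTORC1, had 5.11, 5.32 and 4.51 CPM in No Glucose against 13.6, 12.2 and 11.9 CPM in Control (-1.34 ± 0.17), and Stk11, the kinase LKB1 that activates AMPK, was at -0.40 ± 0.09. Of 31 lysosome and autophagy genes 10 rose and 6 fell. Atg14 (1.03 ± 0.11) and Atg12 (0.92 ± 0.08), which act in the forming of autophagosomes, rose and Ulk1, the kinase that starts the process, fell (-0.64 ± 0.18). The higher count was 6 without No Glucose replicate 1 or Control replicate 3, and the lower count was 3 without No Glucose replicate 2 or Control replicate 3. A count of 6 of 31 in either direction is near the shares of all genes, so this is no firm result about the list.

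Of 14 inhibitors of the cell cycle 6 rose and 5 fell. Gadd45a, which acts in growth arrest after stress, had 12.2, 9.87 and 11.4 CPM in No Glucose libraries, against 3.13, 3.90 and 3.37 CPM in Control libraries (1.68 ± 0.13). Plk2 (1.11 ± 0.06) and Plk3 (0.99 ± 0.10), kinases of the stress response, rose, and Sesn1, a relative of Sesn2, had 5.98, 5.22 and 4.30 CPM in No Glucose against 10.4, 11.3 and 9.60 CPM in Control (-1.02 ± 0.13). Among 9 genes of the MYC network 1 rose and 3 fell, Mxd3 furthest (-1.03 ± 0.17). Of 8 genes of the pentose phosphate pathway Tkt, the transketolase gene, rose (0.35 ± 0.07) and 3 fell, H6pd furthest (-0.62 ± 0.09).

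**Figure D4:**
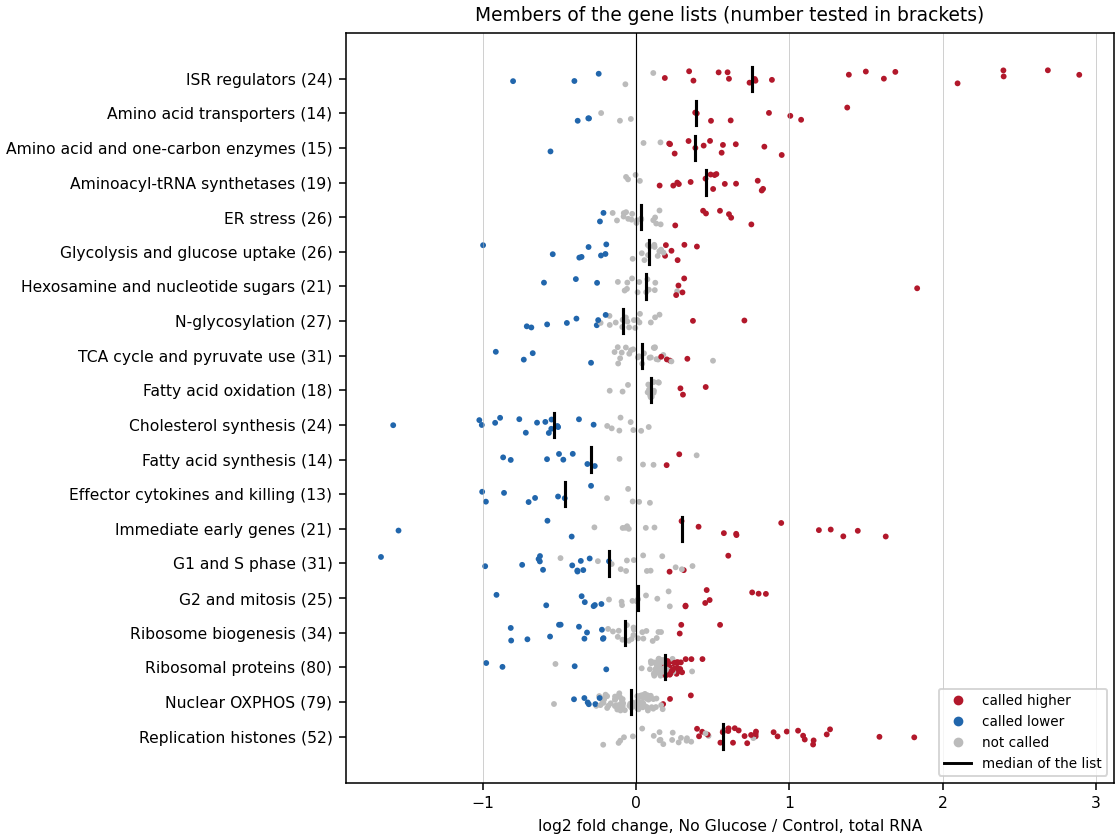
Log2 fold changes in total RNA (x axis, No Glucose over Control) of every tested member of 20 gene lists (y axis, number tested in brackets). Points are genes, red where called higher, blue where called lower and grey where not called, and bars are list medians, from 0.76 for ISR regulators to -0.53 for cholesterol synthesis.

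A further question was whether these changes differ from those of cells lacking an amino acid. For this, the 3 No Glucose libraries were set against the 12 libraries of the other 4 deprivations, with no Control library in the comparison. The reference was the mean of the 4 fitted group levels on the log2 scale. This mean can lie below the median of the 12 libraries, as it did for Ddit3. The 3 No Glucose libraries serve in this comparison and in that with Control, so the 2 are not independent. Of 12642 genes, 2459 were called higher (19.5%) and 2285 lower (18.1%), or 37.5% in either direction. Against each deprivation on its own the shares called were 37.2% for No Arginine (19.8% higher and 17.4% lower), 28.7% for No BCAA (13.9% and 14.8%), 32.5% for No Glutamine (15.8% and 16.7%) and 34.0% for No Methionine (16.6% and 17.4%). Of the 24 ISR regulators 6 were higher and 11 were lower than in the other deprivations, with a median of -0.15 where all genes had 0.00. The 4 deprivations were not alike in this. Against No Arginine 17 of the 24 were higher and 2 lower, with a median of 0.29, whereas 5 were higher and 15 lower against No BCAA, 3 and 16 against No Glutamine, and 5 and 13 against No Methionine. Ddit3 was at 131, 134 and 133 CPM in No Glucose libraries and at 40.2 to 214 (median 161) CPM in the 12 others (0.12 ± 0.05, adjusted p = 0.07), and the No Glucose libraries lay inside the range of the others. Against No Arginine alone Ddit3 differed by 1.65 ± 0.07 (adjusted p = 1.8e-12), Trib3 by 1.58 ± 0.07, Nupr1 by 0.98 ± 0.11 and Sesn2 by 0.75 ± 0.08. Atf3 was lower than in the other deprivations (-0.78 ± 0.04), and Jdp2 (0.94 ± 0.11) and Chac1 (0.44 ± 0.07) were higher. Of the 14 transporter genes 2 were higher and 8 lower, with Slc1a5 at -0.81 ± 0.08 and Slc1a4 at -0.64 ± 0.06. Here too No Arginine stood apart. Against it alone 2 were higher and 3 lower (median -0.02), near the shares of all genes. Against No BCAA, No Glutamine and No Methionine, each on its own, 8 were lower.

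Ogt and Txnip set the No Glucose cells apart in opposite directions. Ogt had 60.8 to 81.4 (median 70.9) CPM in the 12 other deprivation libraries, below all 3 No Glucose libraries (2.12 ± 0.07, adjusted p = 7.6e-15), and the difference passed the test against each deprivation on its own (highest adjusted p = 1.7e-11). Txnip had 89.3 to 209 (median 142) CPM in the 12 others, above all 3 No Glucose libraries (-2.44 ± 0.09, highest single adjusted p = 2.8e-11). Arrdc4 (-2.46 ± 0.26) and Klf10 (-1.61 ± 0.09) were also below all 12, and so were Mgat1, at 60.8 to 78.0 (median 67.6) CPM in the others (-1.08 ± 0.06), and Oga (-0.58 ± 0.07). The ranked genes that were higher included Cxcr4, the receptor for the chemokine CXCL12, with 71.6, 74.5 and 81.1 CPM in No Glucose libraries and 23.0 to 47.0 (median 31.8) CPM in the others (1.22 ± 0.08), the adaptor gene Gab2 (1.13 ± 0.12), the chromatin factor gene Dpf1 (1.23 ± 0.09), Cables1 (1.12 ± 0.09), Zfp395 (1.34 ± 0.14) and Gpr160 (1.31 ± 0.10). Tubb6, a tubulin gene, was at 49.3, 54.3 and 52.9 CPM in No Glucose libraries and 15.7 to 40.9 (median 19.7) CPM in the others (1.21 ± 0.06), while it was not called against Control (-0.19 ± 0.08), where the replicate block, DESeq2 and the fit of only the 6 libraries called it lower (-0.19 to -0.20, adjusted p of 0.012 to 0.045).

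Genes below the other deprivations included several products of activated lymphocytes. Of 13 effector genes 8 were lower and the other 5 were not called against the mean. Lower were 9 against No Arginine, 8 against No BCAA and 9 against No Methionine, with none higher against these, while against No Glutamine 3 were higher and 4 lower. Against the mean, Lta was at 202 to 271 (median 234) CPM in the 12 others (-1.20 ± 0.08), Tnf at -0.82 ± 0.07 and Ifng at -0.62 ± 0.07. The 3 No Glucose libraries were below all 12 others for Lta and Tnf, but not for Ifng, whose range was 733 to 1836 (median 1476) CPM. Il10, at 81.4 to 159 (median 145) CPM in the others (-1.19 ± 0.08), and Lif (-1.18 ± 0.07) were lower as well, as were Icos (-0.94 ± 0.05), Socs3 (-1.02 ± 0.06) and Irf4 (-0.85 ± 0.07). Cd69, higher than in Control, was at 119.8 to 272 (median 185) CPM in the others and lower than these (-0.87 ± 0.07). Of 21 immediate early genes 11 were lower and the other 10 were not called, but against No Arginine alone 6 were higher and 6 lower. Iigp1, an interferon-induced GTPase gene, had 1.33, 1.98 and 1.63 CPM in No Glucose libraries and 3.70 to 6.85 (median 5.01) CPM in the others (-1.60 ± 0.15), and its relative Ifi47 was at -1.01 ± 0.06. The long non-coding RNA Lncpint (-1.50 ± 0.08), the stress gene Gadd45g (-1.38 ± 0.09), Dgcr8 (-1.41 ± 0.09), Mat2a (-1.33 ± 0.07) and the collagen gene Col11a2 (-1.49 ± 0.15) were also among the 10 lowest. Mat2a had 149 to 681 (median 182) CPM in the 12 others, and its 3 highest values there were those of the No Methionine libraries.

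Glycolysis and mitochondrial fuel genes were more often called higher than lower against the other deprivations. Of 26 glycolysis genes 16 were higher and 1 was lower, with a median of 0.25, where against Control 6 were higher and 8 lower. The transporter gene Slc2a3 had 441, 458 and 473 CPM in No Glucose libraries and 227 to 374 (median 279) CPM in the others (0.68 ± 0.05, highest single adjusted p = 0.00061). Against Control its change was 0.23 ± 0.07, and that call was lost without Control replicate 1. Aldoa (0.37 ± 0.05) and the phosphofructokinase genes Pfkm (0.49 ± 0.08), Pfkp (0.44 ± 0.07) and Pfkl (0.37 ± 0.06) were higher too. Of 31 genes of the tricarboxylic acid cycle 12 were higher and 3 lower, and of 18 genes of fatty acid oxidation 8 were higher and 1 was lower. Against No Arginine alone 6 of the 31 were higher and 3 lower (median 0.03), beside 19.8% and 17.4% of all genes. The counts for the 31 were 13 and 2 against No BCAA, 9 and 2 against No Glutamine, and 16 and 3 against No Methionine. Cholesterol genes, by contrast, had 6 higher and 5 lower of 24 and a median of -0.01. That is near the 19.5% higher and 18.1% lower of all genes and no result about the list. Against No Arginine alone 16 were lower and the other 8 were not called, while 6, 7 and 8 were higher and 2, 2 and 3 lower against No BCAA, No Glutamine and No Methionine, in this order. Hmgcs1 had 160.3 to 443 (median 220.3) CPM in the others and was higher without glucose than their mean (0.49 ± 0.06) but lower than without arginine (-0.28 ± 0.08), while Fdps was lower (-0.45 ± 0.11).

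The same lysates were also sequenced as polysome RNA, the mRNA carried by several ribosomes, where 3678 of 12417 genes were called higher without glucose (29.6%) and 3651 lower (29.4%), or 59.0% in either direction. Of the 2751 genes called higher in total RNA 1984 were called higher in polysome RNA, which is 72.1% of the total RNA list and 53.9% of the polysome list, and 140 were called lower there. Of the 2408 called lower 1652 were called lower in polysome RNA, 68.6% of the total RNA list and 45.2% of the polysome list, and 56 were called higher. Of 24 ISR regulators 20 were higher and 2 lower in polysome RNA, with Ddit3 at 154, 152 and 173 CPM in No Glucose polysomes against 14.7, 17.2 and 17.1 CPM in Control polysomes (3.29 ± 0.09). Ogt was at 331, 275 and 242 CPM in No Glucose against 63.4, 47.0 and 51.4 CPM in Control polysome RNA (2.39 ± 0.11), and Oga, lower in total RNA, was not called there (-0.12 ± 0.08). Atf4 changed by 1.25 ± 0.07 in polysome RNA beside 0.60 ± 0.06 in total RNA. Of the cytokine genes, Lta fell in polysome RNA (-1.27 ± 0.11) as did Ifng (-0.41 ± 0.10), whereas Tnf was not called (0.16 ± 0.10). The difference between the fractions was not tested here.

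For ribosomal protein and respiratory chain genes the counts of both kinds of RNA lay far apart. Of 80 ribosomal protein genes 28 were called higher and 4 lower in total RNA, with a median of 0.19, and in polysome RNA 67 of 79 were lower and the other 12 were not called, with a median of -0.65. Rpl10a had 1847, 1837 and 1840.2 CPM in No Glucose and 1376, 1479.7 and 1445 CPM in Control total RNA (0.36 ± 0.07), and 552, 604 and 695 CPM in No Glucose against 781, 832 and 834 CPM in Control polysome RNA (-0.40 ± 0.08). The count of 28 rested on small changes: it was 66 when only the 6 libraries were fitted, 44 with a replicate block, 14, 12 and 10 without No Glucose replicates 1, 2 and 3, and 9 and 12 without Control replicates 1 and 3. The 4 called lower became 1 without No Glucose replicate 1 and 2 without any 1 Control replicate. Of 79 nuclear respiratory chain genes 3 were higher and 6 lower in total RNA, and 4 were higher and 64 lower in polysome RNA (median -0.49). The 6 became 3 without No Glucose replicate 1, Control replicate 2 or Control replicate 3. Ribosomal protein genes have many near-identical copies, which makes their counts uncertain.

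**Figure D5:**
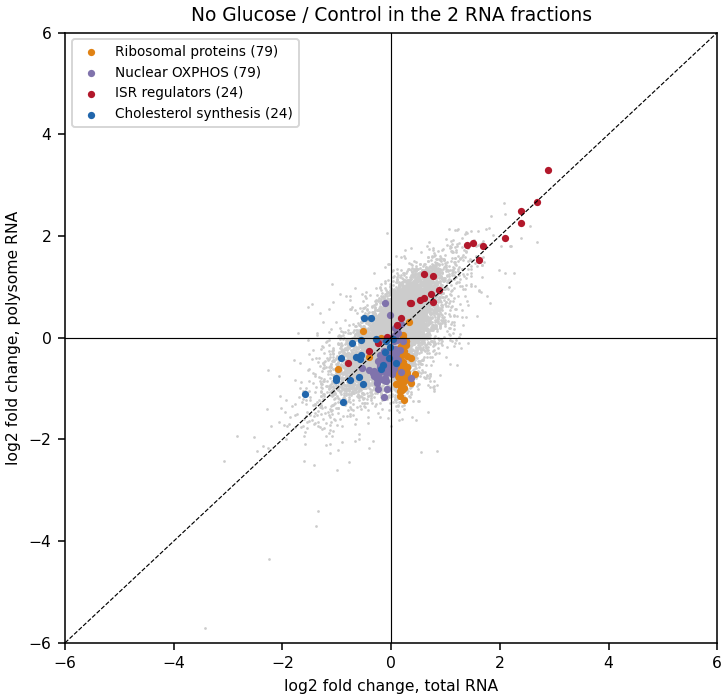
Log2 fold changes of No Glucose over Control in total RNA (x axis) and polysome RNA (y axis) for genes tested in both, with 4 lists in colour (number of members in brackets), all other genes in grey and the dashed line marking equal change. Most ISR regulators lie above 0 in both, up to 2.89 and 3.29 for Ddit3, with Atf4 above the line at 0.60 and 1.25, and most ribosomal protein genes lie below 0 in polysome RNA, with a median of -0.65.

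Replication-dependent histone genes were called in opposite directions against Control and against the other deprivations. Of 52 tested 30 were higher than in Control and the other 22 were not called (median 0.57), and 44 were lower than in the other deprivations and 8 were not called (median -0.85). The linker histone gene H1f1 had 199, 221 and 202 CPM in No Glucose libraries, 276 to 616 (median 493) CPM in the 12 other deprivation libraries and 127, 119.6 and 116 CPM in Control libraries, with no overlap between No Glucose and either other set. In polysome RNA 3 of the 52 were called higher and 7 lower than in Control. These genes share sequence with one another, their mRNAs mostly lack a poly(A) tail, and H2ac8, with 18.8, 8.27 and 8.77 CPM in No Glucose against 2.33, 3.87 and 3.79 CPM in Control, varied among the No Glucose libraries.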

How the data were processed

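RNA of input lysates (total RNA) and of pooled heavy gradient fractions (polysome RNA) was sequenced. The authors deposited raw read counts per gene, without normalization, for 60 of the 78 libraries; 18 monosome libraries were not analysed here. The submitters' processing notes name FastQC, MultiQC, Trimmomatic, STAR, HTSeq, edgeR and build GRCm39. Their versions, the strand setting of the counting and the rule for keeping genes are not given in the sources used here, so overlapping, antisense and near-identical genes are uncertain. Of 14695 entries 449 had no symbol.

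Counts were tested with edgeR 4.0.16 in R 4.3.3: filterByExpr with a minimum count of 10, TMM scaling, and a quasi-likelihood fit of 6 groups of 3 libraries, for total RNA and polysome RNA apart. Adjusted p-values are Benjamini-Hochberg over all genes tested, with calls at 0.05. Standard errors are the log2 fold change divided by the square root of the F statistic. A depth of at least 15144663 counts in each total RNA library limits precision mainly for genes of few CPM. On simulated counts for total RNA against Control (12488 genes), 66, 66 and 67 genes were changed by 0.5, 1 and 2 on the log2 scale. Of these 59.1%, 92.4% and 100.0% were recovered, and 0.0976% of unchanged genes were called. Far more genes were called in the data, and the simulated spread came from the fit itself. The simulated shares therefore need not hold for the data.

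Named genes were the 15 highest and 15 lowest called changes against Control and the 10 highest and 10 lowest against the other deprivations. These had a mean of at least 5 CPM in 1 of both groups and no overlap between libraries. Further ones were members of the gene lists, picked from those with large changes and those that catalyse or regulate the step a list is named for. Members and lists were chosen with earlier results of these data known, and list counts carry no test of their own. No 2 libraries of the No Glucose group, or of the Control group, were alike within counting noise in total RNA. The other groups and the polysome libraries were not checked in this way. Replicate numbers are shared between groups. Deviations of same-numbered No Glucose and Control libraries correlated at -0.008 to 0.145 in total RNA, which neither shows nor excludes pairing. In polysome RNA they correlated at 0.108 to 0.343, a hint that comes from the data and not from the labels. The main fits did not pair libraries. Alternatives were RLE size factors, no filter, DESeq2 1.42.0, a replicate block, removal of ribosomal and 7SK entries, only the 6 libraries of both groups, and leaving out each replicate. Promoter windows came from RefSeq tables of GRCm38.p6, used for sequence only. Some genes of the lists are counted but not reported by name here.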

Additional observations from a re-analysis of the deposited data

How the results depend on the processing

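No comparison changed its count of called genes by over 1.5 times under any alternative run. Against Control in total RNA 5159 genes were called, 5511 with the replicate block, and 4259 (without Control replicate 3) to 4797 (without Control replicate 1) with 1 library left out. Against the other deprivations 4744 were called, 5064 with the replicate block, 3553 to 3720 with 1 No Glucose library left out, and 4672 without No Arginine replicate 2, a library with 6.63% ribosomal and 7SK entries, an alternative chosen after seeing the data. In polysome RNA 7329 were called, 7731 with the replicate block and 6556 to 7197 with 1 library left out. RLE size factors, no filter, DESeq2 and removal of ribosomal entries gave 5104 to 5164, 4632 to 4746 and 7285 to 7361 calls in the 3 comparisons, and only the 6 libraries gave 5951 in total RNA and 6760 in polysome RNA.

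Lists of small changes depended on the fit. Ribosomal protein genes called higher were 28, 44 with the replicate block and 66 with only the 6 libraries; respiratory chain genes called lower were 6, 10 with the block or DESeq2 and 21 with only the 6 libraries. G1 and S phase genes called higher were 3, and 6 with the block; genes of the tricarboxylic acid cycle called higher were 4, and 7 with only the 6 libraries. The cause was not tested. Genes at a few CPM, such as Arrdc4 and Aoc2, have wide errors at this depth. With 3 libraries a group, a gene that was not called is not shown to be unchanged. The self-test, in which few genes were changed, missed part of the changes of 0.5 on the log2 scale.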

Other observations

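Stress genes outside the ISR were called in both directions in total RNA of No Glucose cells against Control, where 21.8% of all genes rose and 19.0% fell. Of 16 genes of NRF2 and glutathione 4 rose and 7 fell. Hmox1, which degrades heme, had 65.9, 70.8 and 73.1 CPM in No Glucose libraries, against 20.0, 18.8 and 18.6 CPM in Control libraries (1.87 ± 0.07, adjusted p = 2.6e-13), and Srxn1, which repairs oxidised peroxiredoxins, rose by 0.73 ± 0.08. The thioredoxin reductase gene Txnrd1 had 241, 232 and 228 CPM in No Glucose against 381, 347 and 339.8 CPM in Control (-0.61 ± 0.07), and the glutathione reductase gene Gsr was also lower (-0.51 ± 0.07). Of 15 heat shock genes 3 rose and 3 fell, which is near the shares of all genes and no result about the list. The inducible chaperone gene Hspa1b, at a low level, had 2.76, 3.24 and 3.05 CPM in No Glucose against 0.953, 0.752 and 0.973 CPM in Control (1.75 ± 0.29), and its 3 No Glucose libraries were above all 12 libraries of the other deprivations, at 0.225 to 1.09 (median 0.559) CPM (2.42 ± 0.23). The co-chaperone gene Dnaja1 fell by 0.53.

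Genes of survival and mRNA turnover fell more often than they rose. Of 13 genes of the BCL2 family and death receptors 1 rose and 5 fell. The changes ran from -0.85, in a gene not reported by name here, to 1.02. Bbc3, which encodes the pro-apoptotic PUMA, had 11.1, 11.5 and 10.8 CPM in No Glucose and 5.53, 5.34 and 5.58 CPM in Control libraries (1.02 ± 0.15), while the pro-survival genes Mcl1 (-0.34 ± 0.07) and Bcl2l1 (-0.35 ± 0.07) fell, as did the pro-apoptotic gene Bak1 (-0.34 ± 0.07). Of 12 regulators of mRNA decay 6 fell and 3 rose, or 1 without No Glucose replicate 3. Rc3h1, which encodes Roquin, a repressor of Icos and other immune mRNAs, had 39.6, 40.2 and 35.0 CPM in No Glucose against 78.0, 68.4 and 67.3 CPM in Control (-0.90 ± 0.15), the endonuclease gene Zc3h12a (Regnase-1) fell by 0.62, and Zfp36, whose product destabilises cytokine mRNAs, had 22.8, 27.1 and 25.1 CPM in No Glucose against 14.3, 16.9 and 16.4 CPM in Control (0.65 ± 0.12).

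Of 76 mitochondrial ribosomal protein genes 11 rose and 10 fell in total RNA, below the 21.8% and 19.0% of all genes. In polysome RNA 7 were higher and 53 lower (median -0.35), beside 29.6% and 29.4% of all genes. Of 11 homing genes 2 rose and 2 fell in total RNA, near the shares of all genes there and no result about the list. The higher count was 1 without No Glucose replicate 3 or Control replicate 1, and the lower count was 1 without No Glucose replicate 1, Control replicate 2 or Control replicate 3. Of 10 mRNAs encoded in mitochondria 2 fell and 8 were not called; without No Glucose replicate 1 none of the 10 was called lower, and without Control replicate 3 1 was. In the other direction, 2 were called higher with the replicate block and 1 without Control replicate 2.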
